A study of Mus musculus with 16 samples.

Results

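Thymosin β10 (Tβ10) was applied to primary neurons cultured from the brains of C57BL/6 mice at postnatal day 0, and its effect on total RNA was set against that of vehicle alone, a phosphate-buffered saline after Dulbecco (DPBS). The comparison rests on the 4 libraries labelled Tβ10 and the 4 labelled control, which are 8 of the 16 libraries in the series; all 45724 genes of the deposited table were considered and 21960 passed the filter on low values. The remaining 8 libraries received NP24 or thymosin β4 (Tβ4), 4 each, and enter only where a difference between peptides is tested. All 4 groups share the strain, the tissue and the culture. The peptides are attributed in the series to the subcommissural organ, a gland in the roof of the ventricular system that secretes into the cerebrospinal fluid. The dose, the time of exposure, the days in culture and the number of animals behind a culture are not given in the sources used here. The labels do not say that the 4 libraries of a group are separate cultures, so each p measures the spread between these libraries, which may be technical.

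β-thymosins are short peptides that hold actin in its monomeric form. The pool of actin monomers is read in the nucleus by myocardin-related transcription factors (MRTF), which leave monomeric actin to act with serum response factor (SRF) on genes of the cytoskeleton, the matrix and the immediate early response. Lists of several further programmes were examined. ATF4 is a transcription factor made when eIF2α is phosphorylated, and it induces amino acid carriers and biosynthetic enzymes. NRF2, encoded by Nfe2l2, is a transcription factor that induces antioxidant and glutathione genes through antioxidant elements. Immediate early genes are transcribed within minutes of a stimulus, in neurons above all upon calcium entry.

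The Tβ10 libraries held 11642242 to 38254320 reads in genes and the DPBS libraries 18564148 to 26717821. Tβ10 library 1 was the deepest and Tβ10 library 4 the shallowest, and 1 read was worth 0.536 to 1.71 normalized counts across the series. DPBS library 4 stood apart from the rest. On the first principal component of the 8 libraries, which held 26.2% of the variance, it lay at 100.2 and the other 7 between -30.36 and 4.64. It differed by over 1 on the log2 scale from all other DPBS libraries in 1486 genes, against 376 to 573 for each other DPBS library, and 219 to 1073 for each Tβ10 library within its own group. The mitochondrial ribosomal RNAs took 6.98, 9.53, 7.53 and 4.76% of reads in the Tβ10 libraries and 14.2, 10.5, 9.32 and 11.1% in the DPBS libraries. The mean share was 7.20 ± 1.96% with Tβ10 and 11.3 ± 2.07% with DPBS (SD, n = 4 each), a difference of -4.09 percentage points (two-sided exact permutation test, p = 0.0571, where 4 against 4 cannot go below 0.029). Tβ10 library 2 overlapped the DPBS range. A fit with this share as a covariate is given after the gene groups.

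The neuronal label held for the markers. Of the 16 neuron markers all were measured and none changed; Map2, a dendritic microtubule protein, ran from 29170 to 33660 normalized counts with Tβ10 and from 27430 to 31210 with DPBS. Other cell types were present in both groups. The summed level of the astrocyte markers was 12230 to 15590 with Tβ10 and 10970 to 13050 with DPBS, and that of the oligodendrocyte lineage 15570 to 19070 and 16910 to 21300. Members of the other lists differed in level. Among microglial markers, the fractalkine receptor Cx3cr1 had at least 1190 normalized counts in each of the 8 libraries, while Tmem119 was at 0 in every Tβ10 library and at most 2.36 in a DPBS library. Among endothelial markers, the adhesion protein Pecam1 ran from 17.8 to 44.1 with Tβ10 and from 58.1 to 83.01 with DPBS. The receptor Tek leaned the other way, from 18.8 to 57.9 with Tβ10 and from 3.48 to 37.9 with DPBS. Esam was level, at 24.4 to 53.1 and 24.8 to 51.5. Cldn5, a tight-junction protein, was at 0 with Tβ10 and at most 1.61 with DPBS. Among red blood cell markers, Alas2 of heme synthesis ran from 243 to 515 with Tβ10 and from 306 to 455 with DPBS, while the globin gene Hba-a1 was at 0 with Tβ10 and at most 10.6 with DPBS.

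Tβ10 changed 139 of the 21960 genes tested (0.633%; limma, Benjamini-Hochberg adjusted p under 0.05), and most of them fell. There were 117 lower genes (0.533%) and 22 higher ones (0.1%). The lower genes fell by a median of 1.08 on the log2 scale, and 65 of them fell by more than 1; the higher genes had a median log2 difference of 0.70, and 3 exceeded 1. The libraries of the groups did not overlap in 136 of the 139. The 139 were chosen by p in these same values, so this is no separate support for them. Over all genes tested the groups did not overlap in 1519 (6.92%), with all Tβ10 libraries lower in 868 (3.95%) and higher in 651 (2.96%). The median log2 difference of all genes tested was -0.00491. Of the 139 genes, 126 were also called by both edgeR and DESeq2 on the recovered reads. Scaled to library size in place of the authors' size factors, 123 genes were called, 56 higher and 67 lower, and the median of all genes lay at 0.09.

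**Figure D1:**
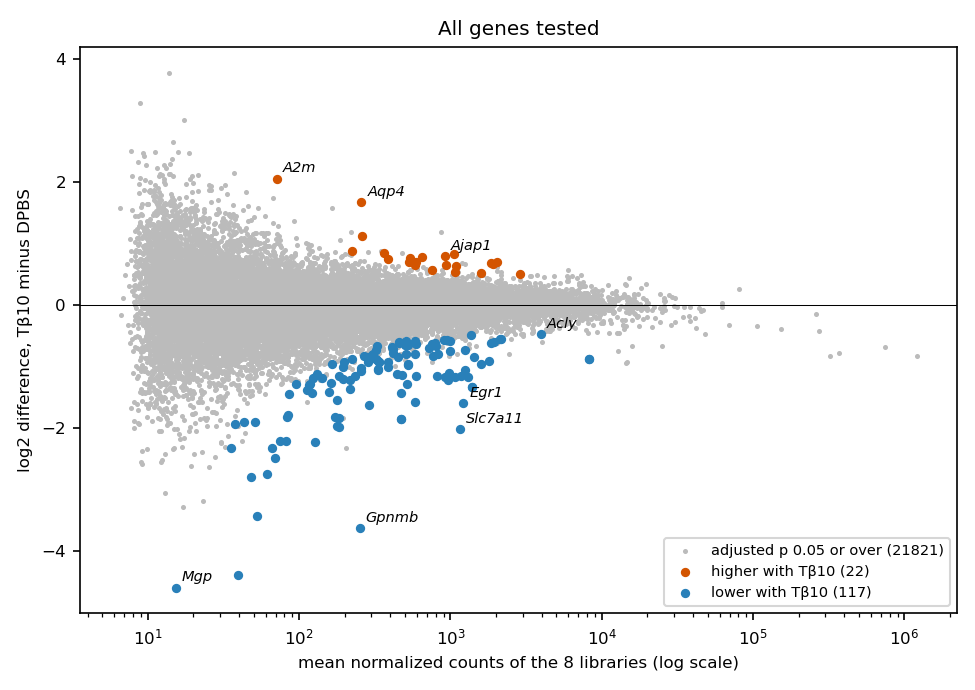
Log2 difference between the Tβ10 and DPBS libraries (vertical axis) against the mean normalized count of the 8 libraries (horizontal axis, log scale) for each gene tested. The 117 lower genes lie from -4.60 to about -0.48 and the 22 higher genes from about 0.51 to 2.06.

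Normalized counts below are the authors' size-factor scaled read counts, differences are on the scale of log2(normalized count + 1) with their standard error, and folds are ratios of the group means. Gene positions are from GENCODE for GRCm38. The leading change was in Gpnmb, a transmembrane glycoprotein of lysosomes and melanosomes (chromosome 6, 49036546 to 49070929). It had 15.01, 59.9, 38.7 and 44.3 normalized counts in the Tβ10 libraries, against 556, 495, 304 and 494 in the DPBS libraries. Every Tβ10 library lay far below every DPBS library. The mean was 39.5 ± 18.6 with Tβ10 and 462 ± 110 with DPBS, an 11.7-fold fall (log2 -3.63 ± 0.33, adjusted p = 4.32e-05). Ahnak, a giant scaffold protein under the plasma membrane, had 132, 153, 139 and 131 normalized counts with Tβ10 and 422, 395, 334 and 616 with DPBS (-1.63 ± 0.19, adjusted p = 0.000231). The Tβ10 libraries were close together and DPBS library 4 was the highest of the controls. Anxa3, a calcium-dependent membrane-binding annexin, fell by 1.80 (adjusted p = 0.0311).

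The applied peptide's own gene showed no detectable change. Tmsb10, which encodes Tβ10, averaged 2464 ± 857 normalized counts with Tβ10 and 2582 ± 120 with DPBS (log2 -0.13 ± 0.18, adjusted p = 0.83). Tβ10 library 1 was low for it and Tβ10 library 2 high, so the spread was wider with Tβ10. Tmsb4x, the gene of Tβ4, differed by -0.02 ± 0.20 (adjusted p = 0.984). None of the 17 tested β-thymosins and actin monomer binders was called, their median was -0.0179, and Wdr1, which assists cofilin in taking filaments apart, came nearest (-0.41, adjusted p = 0.124).

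Of 20 regulators and targets of SRF and MRTF, 5 fell and none rose, with a median of -0.396. Srf itself had 363, 465, 401 and 403 normalized counts with Tβ10 and 656, 570, 638 and 697 with DPBS. The groups did not overlap, and the difference was -0.65 ± 0.13 (adjusted p = 0.0304). Ccn1 and Ccn2, matricellular proteins induced by SRF and YAP, fell by 1.38 (adjusted p = 0.0269) and 1.91 (adjusted p = 0.0446); Ccn2 shares 23.2% of its exon bases with Gm15270. Zyx, a focal adhesion protein, fell by 0.78. Acta2, smooth muscle actin, averaged 26.5 ± 16.8 with Tβ10 and 124 ± 59.0 with DPBS (-2.22 ± 0.47, adjusted p = 0.0361), and its groups overlapped, since Tβ10 library 2 exceeded DPBS library 2. Actg1, a cytoplasmic actin, differed by -0.34 (adjusted p = 0.508). The 5 calls of this list did not hold up to a change of libraries: none remained called without Tβ10 library 3, DPBS library 1, DPBS library 3 or DPBS library 4, and 1 gene was called without Tβ10 library 4 or DPBS library 2.

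Genes of the ATF4 branch were lower together. All 21 tested members of the ATF4 branch had a log2 difference below 0, with a median of -0.836, and 7 fell at the threshold while none rose. Over all genes tested 11144 of 21960 lay below 0. Atf3, a stress-induced repressor, had 21.4, 28.9, 18.01 and 17.1 normalized counts with Tβ10 and 117, 91.8, 92.7 and 144 with DPBS (-2.34 ± 0.33, adjusted p = 0.00178). Trib3, a pseudokinase that restrains ATF4 and AKT, had 55.7, 52.1, 21.6 and 47.8 with Tβ10 and 313, 127, 185 and 220 with DPBS (-2.24 ± 0.33, adjusted p = 0.0024). In both genes all Tβ10 libraries lay below all DPBS libraries. Eif4ebp1, the repressor that binds the cap-binding protein eIF4E, had 72.9, 87.6, 106 and 90.4 normalized counts with Tβ10 and 319, 208, 212 and 334 with DPBS (-1.55 ± 0.22, adjusted p = 0.00187). Its partner Eif4e, named here after its value was seen, was among the 22 higher genes (log2 0.53). Stc2, a secreted glycoprotein, fell by 1.21, Atf5, a related transcription factor, by 1.15, Sesn2, which restrains mTORC1 upon amino acid shortage, by 0.96, and Ddit3, the factor CHOP, by 0.92. Atf4 itself came close to the threshold without passing it (-0.70, adjusted p = 0.0505).

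The amino acid carriers were divided. Of 16 tested, 6 fell, none rose and the median was -0.128. Slc7a11, which imports cystine in exchange for glutamate (chromosome 3, 49892526 to 50443614), had 484, 543, 377 and 372 normalized counts with Tβ10 and 2480, 1907, 1074 and 1963 with DPBS. It fell 4.18-fold (-2.02 ± 0.20, adjusted p = 7.11e-05), and the highest Tβ10 library was below the lowest DPBS library. Its heavy chain Slc3a2, which also serves the large neutral amino acid carrier, had 890, 1346, 1065 and 1030 with Tβ10 and 2191, 2012, 1811 and 2401 with DPBS (-0.97 ± 0.13, adjusted p = 0.0014). The large neutral amino acid carrier Slc7a5 fell by 0.91, and the glutamine carrier Slc1a5 by 1.19. Of the cationic amino acid carriers, Slc7a3 fell by 1.42 and Slc7a1 fell by 0.60. Of 16 serine, asparagine and one-carbon enzymes, 1 fell, Psat1 of serine synthesis (-0.64, adjusted p = 0.0381), with 15 of the 16 below 0. None of the 20 cytosolic aminoacyl-tRNA synthetases was called; Mars, which charges methionine, came nearest (-0.47, adjusted p = 0.0756).

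**Figure D2:**
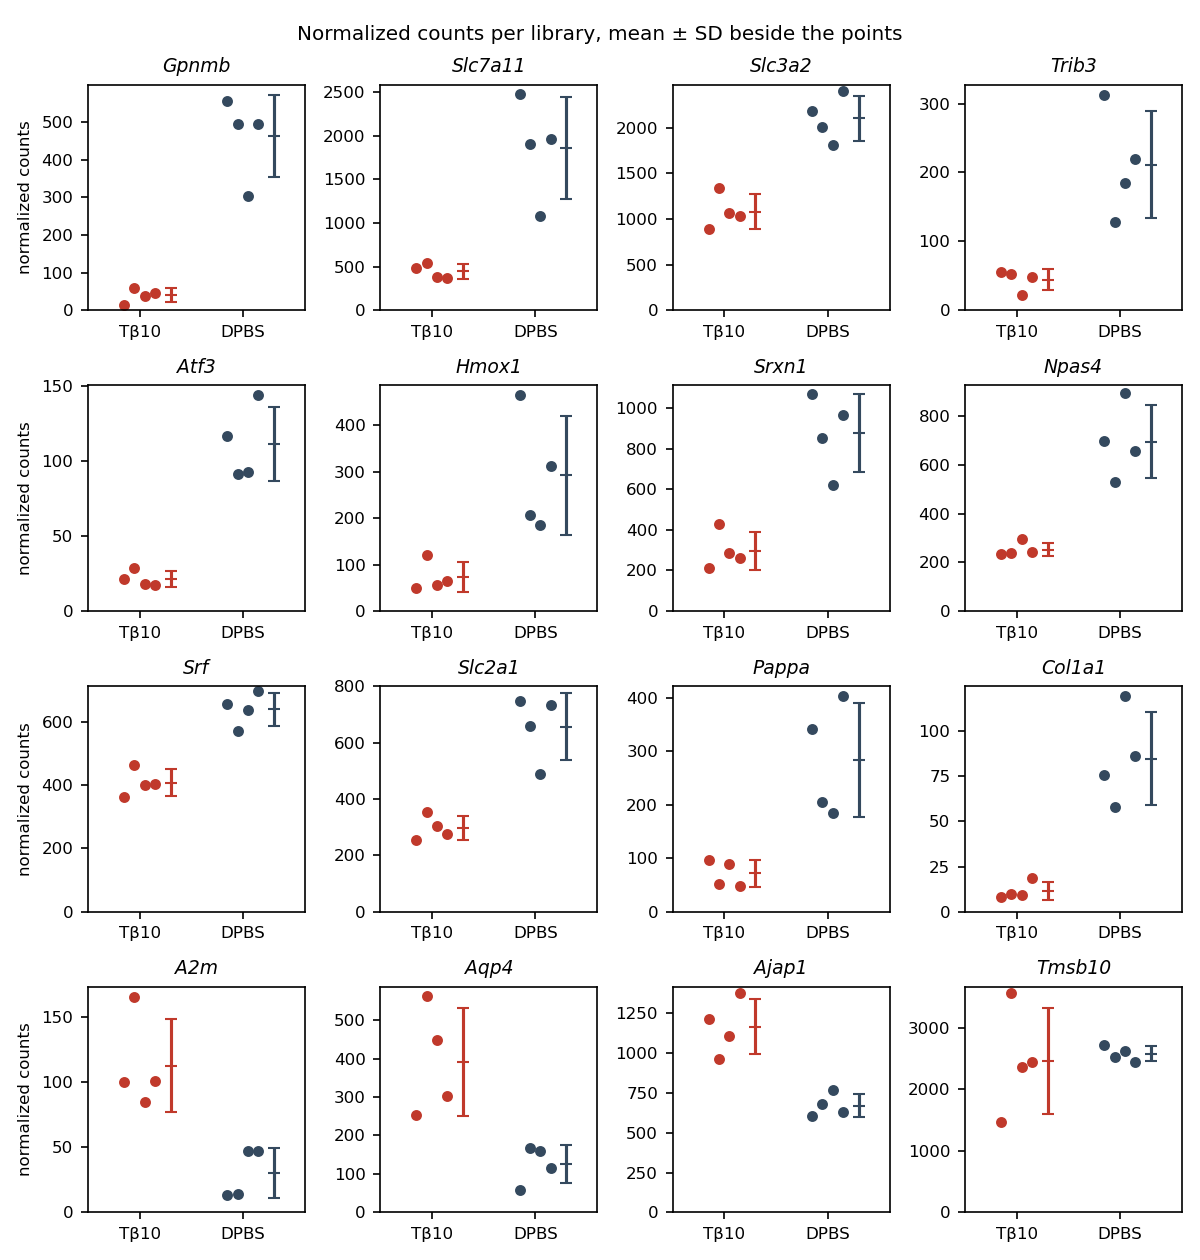
Normalized counts (vertical axes, each starting at 0) of 16 genes in the 4 Tβ10 libraries (left, red) and the 4 DPBS libraries (right, dark), in library order, with the mean and SD beside the points. The groups do not overlap in any panel except that of Tmsb10; A2m, Aqp4 and Ajap1 are the panels with Tβ10 above DPBS.

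The start-site regions of genes from these groups are shown because the genes moved together and because each holds an element known for its programme. The windows, from RefSeq for GRCm38.p6, hold 250 bases before and 50 bases from each annotated start, 5′ to 3′ on the gene's strand. They are Slc7a11 (chr3:50443564-50443863, minus strand), Trib3 (chr2:152344011-152344310, minus), Atf3 (chr1:191183284-191183583, minus), Srxn1 (chr2:152105274-152105573, plus) and Srf (chr17:46556113-46556412, minus). Capitals mark the ATF4 element TGATGNAA in the first 3, the antioxidant element TGACNNNGC in Srxn1 and the CArG box bound by SRF in Srf, on either strand.
Slc7a11: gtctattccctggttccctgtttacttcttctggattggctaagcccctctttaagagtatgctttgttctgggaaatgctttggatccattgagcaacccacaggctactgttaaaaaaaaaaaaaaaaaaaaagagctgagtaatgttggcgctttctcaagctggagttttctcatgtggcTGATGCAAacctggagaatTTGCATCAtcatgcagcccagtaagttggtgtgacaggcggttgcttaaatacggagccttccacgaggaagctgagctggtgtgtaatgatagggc
Trib3: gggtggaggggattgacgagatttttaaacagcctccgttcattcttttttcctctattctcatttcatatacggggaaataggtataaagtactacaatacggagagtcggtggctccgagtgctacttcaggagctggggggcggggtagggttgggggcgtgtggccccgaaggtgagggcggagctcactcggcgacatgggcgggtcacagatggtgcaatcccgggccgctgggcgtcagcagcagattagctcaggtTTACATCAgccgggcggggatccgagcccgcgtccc
Atf3: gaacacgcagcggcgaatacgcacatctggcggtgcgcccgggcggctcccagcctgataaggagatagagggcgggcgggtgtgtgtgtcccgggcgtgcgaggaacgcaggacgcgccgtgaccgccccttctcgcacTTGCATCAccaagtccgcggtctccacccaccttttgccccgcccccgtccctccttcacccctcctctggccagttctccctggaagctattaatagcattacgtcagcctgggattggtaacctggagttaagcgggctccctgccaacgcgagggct
Srxn1: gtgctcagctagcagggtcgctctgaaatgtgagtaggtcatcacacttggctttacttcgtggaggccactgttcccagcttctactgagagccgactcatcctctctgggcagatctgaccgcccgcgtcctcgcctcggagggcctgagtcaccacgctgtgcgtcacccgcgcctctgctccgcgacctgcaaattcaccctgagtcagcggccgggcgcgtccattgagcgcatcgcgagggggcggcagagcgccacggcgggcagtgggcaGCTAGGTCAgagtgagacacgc
Srf: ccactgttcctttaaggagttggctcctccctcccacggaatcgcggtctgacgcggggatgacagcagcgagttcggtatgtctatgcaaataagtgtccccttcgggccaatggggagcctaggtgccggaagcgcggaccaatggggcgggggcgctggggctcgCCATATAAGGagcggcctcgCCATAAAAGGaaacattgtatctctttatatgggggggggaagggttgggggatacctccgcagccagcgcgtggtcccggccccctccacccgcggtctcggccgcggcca

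Slc7a11 held the ATF4 element at 2 places, in opposite orientations, which began 66 and 47 bases before the start. Atf3 held it 110 bases before the start and Trib3 14 bases after it. Srf held CArG boxes 82 and 62 bases before its start, and Srxn1 held its match 28 bases after the start. Atf3 and Srf were added to this display after their values were seen. Of the lower genes, 77 had a window in the table; 8 of them (10.4%) held the ATF4 element, against 1304 of all 32851 windows (3.97%), and 21 (27.3%) held the antioxidant element, against 12.4% of all windows. For the CArG box the shares were 1.3% of the lower genes and 1.63% of all windows. The cyclic AMP element TGACGTCA was in 2.6% and 1.79%, and the E-box TCACGTG in 5.19% and 3.77%. A lower gene was counted if any of its windows matched, while the background counts single windows. Genes with several windows can raise only the share of the lower genes, so the shares are not like for like. A match of letters is not evidence of binding, the antioxidant letters are loosely defined, and these shares carry no test.

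NRF2-linked genes followed the same direction. Of 28 antioxidant genes tested, 7 fell, none rose, and the median was -0.454 with 25 below 0. Nfe2l2, which encodes NRF2, had 181, 182, 162 and 131 normalized counts with Tβ10 and 397, 355, 281 and 354 with DPBS (-1.08 ± 0.18, adjusted p = 0.00638). Srxn1, the enzyme that repairs overoxidized peroxiredoxins, had 211, 427, 286 and 263 with Tβ10 and 1069, 850, 622 and 965 with DPBS (-1.58 ± 0.20, adjusted p = 0.000546). Hmox1, which degrades heme, had 48.8, 120, 55.9 and 64.8 with Tβ10 and 466, 206, 185 and 313 with DPBS (-1.99 ± 0.31, adjusted p = 0.00386). The groups did not overlap in these 3 genes, with Tβ10 library 2 the highest of its group each time. The glutathione transferase Gsta4 fell by 1.82 (adjusted p = 0.000948), the prostaglandin reductase Ptgr1 by 1.83, the multidrug carrier Abcc4 by 0.79 and Gclm, the modifier subunit of the enzyme that starts glutathione synthesis, by 0.57. Not every classical member took part. Nqo1, a quinone reductase, differed by 0.15 (adjusted p = 0.96), and Gclc, the catalytic partner of Gclm, by 0.03 (adjusted p = 0.956). Both were named after their values were seen.

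Glucose and growth factor genes gave few calls. Slc2a1, the glucose carrier GLUT1, had 255, 355, 303 and 275 normalized counts with Tβ10 and 747, 659, 490 and 732 with DPBS (-1.14 ± 0.16, adjusted p = 0.00178). Vegfa, the vascular growth factor, had 1158, 913, 996 and 1018 with Tβ10 and 2066, 1752, 1591 and 1923 with DPBS (-0.84 ± 0.12, adjusted p = 0.00178). Neither gene's groups overlapped, and these were the 2 calls among 26 tested genes of glycolysis and hypoxia, whose median was -0.0146. In the insulin-like growth factor axis, 2 of 17 fell. Pappa, a protease that frees insulin-like growth factors from a binding protein, had 97.0, 52.1, 89.2 and 47.8 normalized counts with Tβ10 and 343, 206, 184 and 404 with DPBS (-1.97 ± 0.29, adjusted p = 0.00243), and Stc2, its inhibitor, was the other. Lipid synthesis was touched lightly. Of 26 cholesterol genes 2 fell, the lanosterol synthase Lss by 0.61 and the cholesterol carrier Stard4 by 0.70, with 25 below 0, and of 13 fatty acid genes Acly, which makes cytosolic acetyl-CoA, fell by 0.48. These 3 calls were lost without any of Tβ10 library 3, Tβ10 library 4 or DPBS library 1, 2 or 4.

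Immediate early genes were lower without exception among those called. Of 26 tested, 5 fell and none rose, with a median of -0.497. Egr1, a zinc finger factor, had 378, 793, 589 and 711 normalized counts with Tβ10 and 1696, 1778, 1765 and 1967 with DPBS (-1.59 ± 0.17, adjusted p = 0.000123). Npas4, a factor induced selectively by calcium in neurons (chromosome 19, 4984355 to 4990316), had 235, 236, 294 and 244 with Tβ10 and 699, 531, 894 and 656 with DPBS (-1.44 ± 0.16, adjusted p = 0.000163). All Tβ10 libraries lay below all DPBS libraries for both, and Tβ10 library 3 was the highest of its group for Npas4. The early gene Ier2 fell by 1.43 and the antiproliferative gene Btg2 by 0.98. Maff, a small Maf partner of NRF2, fell by 1.12. Downstream feedback was not called: 0 of 20 MAPK phosphatases and inhibitors passed, with Dusp10 (-0.69, adjusted p = 0.0922) and Dusp4 (-0.71, adjusted p = 0.118) nearest. Among 21 neuronal activity and neurotrophin genes none passed; Ntf3, the neurotrophin NT-3, was nearest (-0.70, adjusted p = 0.0553).

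p53-linked genes gave 7 lower members of 24, none higher, with a median of -0.526. The list shares Sesn2 with the ATF4 list and Btg2 with the immediate early list. Bbc3, the proapoptotic BH3 protein PUMA, had 217, 241, 240 and 317 normalized counts with Tβ10 and 540, 493, 405 and 622 with DPBS (-1.02 ± 0.17, adjusted p = 0.00638), without overlap. It was the only call among 17 members of the BCL2 family. The cell cycle inhibitor Cdkn1a fell by 0.92, Gadd45g by 0.92, the receptor Eda2r by 0.88 and the nuclease Aen by 0.63. Without DPBS library 1 none of the 24 was called.

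Matrix genes of mesenchymal cells fell from low levels. Of 19 collagens tested 5 fell, with a median of -0.712. Col1a1 had 8.04, 9.99, 9.01 and 18.8 normalized counts with Tβ10 and 75.6, 58.1, 119 and 86.1 with DPBS (-2.81 ± 0.42, adjusted p = 0.00243). The 4 Tβ10 libraries held 45 reads of it in all and the DPBS libraries 373. Col3a1, its fibrillar partner, fell by 3.43 (44 reads against 397) and Col1a2 by 1.91. Basement membrane collagens fell less, Col18a1 by 1.15 and Col4a1 by 0.76 (739 ± 78.3 with Tβ10 and 1255 ± 210 with DPBS). Among 26 other matrix genes and proteases, the collagen-binding Aebp1 fell by 2.49, Sparc, which chaperones collagen outside cells, by 1.05, and the laminin chain Lama5 by 0.92, while A2m rose. Mgp, a calcification inhibitor, had a single read in the Tβ10 libraries, in library 1, and 133 in the DPBS libraries. It reached the filter only in the DPBS libraries, and leaving out any of these removed it from the test.

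The fallen collagens overlap with markers of cells other than neurons. Of the fibroblast and meningeal markers 11 of 15 passed the filter and 4 fell, namely Col1a1, Col1a2, Col3a1 and Mgp. Mgp passed the filter only through the DPBS libraries, so it could enter the count only as lower. Col1a1, Col1a2 and Col3a1 reached 10 normalized counts in every DPBS library but not in every Tβ10 library. They too needed the DPBS libraries to pass, which also holds for their place among the 5 collagens that fell. Lum was at 0 in every DPBS library and at most 1.80 with Tβ10, and Dcn at most 10.8 with Tβ10 and 5.64 with DPBS. The summed level of the list was 3413 to 5266 with Tβ10 and 5265 to 6248 with DPBS. Most of this sum came from Islr and Fn1, neither of them called. Islr ran from 1842 to 3469 with Tβ10 and from 3212 to 3524 with DPBS, and Fn1 from 1074 to 1245 and from 1298 to 1721. Of 10 tested pericyte and endothelial markers 2 fell, 8 lay below 0, and the differences ran up to 0.985. Rgs5, a pericyte regulator of G-protein signals, had 10.2, 46.6, 39.6 and 23.9 normalized counts with Tβ10 and 186, 64.6, 132 and 150 with DPBS (-2.21 ± 0.43, adjusted p = 0.0242), and Pdgfrb, the pericyte receptor, fell by 0.97. The summed level was 811 to 962 with Tβ10 and 1036 to 1607 with DPBS. Much of it came from Notch3 and Cspg4, neither of them called and both with overlapping groups. Notch3 ran from 264 to 295 with Tβ10 and from 214 to 322 with DPBS, and Cspg4 from 264 to 375 and from 320 to 559. Fewer such cells and less of these RNAs per cell cannot be told apart in these bulk libraries.

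Lysosomal and macrophage genes were lower in part. Of 32 lysosomal genes 4 fell and 31 lay below 0, with a median of -0.333. Beside Gpnmb these were the protease Ctsd (-1.07, adjusted p = 0.00692), which shares 34.4% of its exon bases with Gm49369, the tetraspanin Cd63 (-1.01) and the protective protein Ctsa (-0.61). Ctsd had 528, 1011, 856 and 848 normalized counts with Tβ10 and 2269, 1450, 1393 and 1623 with DPBS, without overlap. Of 18 microglial and macrophage markers 13 passed the filter, 12 of these lay below 0 with a median of -1.01, and 2 fell. Lyz2, the lysozyme of macrophages, had 4.82, 24.4, 23.4 and 11.9 with Tβ10 and 147, 59.9, 73.3 and 144 with DPBS (-2.75 ± 0.48, adjusted p = 0.00932), and Cd68, a macrophage endosomal protein, fell by 1.30 (adjusted p = 0.0341). The other members did not pass the test, and they differed in pattern. Csf1r, the receptor for colony-stimulating factor, ran from 54.04 to 71.6 normalized counts with Tβ10 and from 88.01 to 138 with DPBS, and the lysosomal protein Laptm5 from 4.29 to 34.4 and from 39.1 to 87.04, both without overlap. Ctss, a lysosomal protease, ran from 18.8 to 51.03 with Tβ10 and from 50.8 to 119 with DPBS, and C1qb of complement from 1.07 to 28.99 and from 26.95 to 45.9, both with overlap. Lyz2, Laptm5 and C1qb reached 10 normalized counts in every DPBS library but not in every Tβ10 library. The filter thus favoured members lower with Tβ10, so the 12 below 0 and the median are no separate support for a fall. Cx3cr1 ran from 1190 to 1602 normalized counts with Tβ10 and from 1229 to 1379 with DPBS, and P2ry12 from 295 to 367 and from 294 to 478. The summed level of the microglial list was 1749 to 2210 with Tβ10 and 2122 to 2631 with DPBS. Most of this sum came from Cx3cr1 and P2ry12, neither of them called and both with overlapping groups. The part of macrophages in the fall of the lysosomal genes was not tested.

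The 22 higher genes were led by a protease inhibitor and an astrocyte channel, and 19 of them rose by less than 1 on the log2 scale. A2m, a broad protease inhibitor, led with 99.7, 165, 84.7 and 101 normalized counts with Tβ10 and 12.99, 14.04, 46.7 and 46.95 with DPBS (2.06 ± 0.43, adjusted p = 0.0324). DPBS libraries 1 and 2 were low and DPBS libraries 3 and 4 intermediate, and none reached the Tβ10 range. Aqp4, the water channel of astrocyte endfeet, had 252, 561, 448 and 302 with Tβ10 and 59.1, 167, 160 and 115 with DPBS (1.67 ± 0.30, adjusted p = 0.01). It was the 1 call among 13 astrocyte markers. The median of this list was 0.14, with 2 members below 0. Gfap, the astrocyte filament protein, ran from 436 to 713 with Tβ10 and from 248 to 504 with DPBS. Slc1a3, the glial glutamate carrier, ran from 3426 to 5063 and from 3302 to 4166. The gap junction protein Gja1 leaned down, from 263 to 544 with Tβ10 and from 400 to 662 with DPBS. So did the transcription factor Sox9, from 658 to 1045 and from 932 to 1134. All 4 of these ranges overlapped.

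Among the other higher genes, Ajap1, a protein of adherens junctions (chromosome 4, 153373221 to 153482811), had 1216, 965, 1108 and 1378 normalized counts with Tβ10 and 608, 682, 767 and 628 with DPBS (0.79 ± 0.13, adjusted p = 0.00638). Frem2, an extracellular adhesion protein of basement membranes, had 887, 762, 783 and 842 with Tβ10 and 391, 464, 550 and 501 with DPBS (0.79 ± 0.13, adjusted p = 0.0069). Slc6a11, the GABA carrier GAT3, had 2169, 2070, 2508 and 2389 with Tβ10 and 1177, 1438, 1613 and 1469 with DPBS (0.69 ± 0.12, adjusted p = 0.00783). These 3 did not overlap between groups and stayed called in 7, 7 and 6 of the 8 fits that left out a library. None of the 22 was called without DPBS library 1. Prickle1, a planar polarity protein, rose by 0.66, the cadherin Cdh8 by 0.66, the calcium-binding Necab1 by 0.83, the hyaluronidase Cemip by 0.70 and Wnt7b by 0.57 (adjusted p = 0.0447). Wnt7b was the 1 call among 28 Wnt genes. Klhl14 (1.13), the transcriptional coactivator Eya4 (0.88), the neuronal serine protease Prss12 (0.84) and the homeobox gene Mkx (0.77) rose as well. Jakmip1 (0.69), a microtubule-associated partner of GABA-B receptors, shares 46.9% of its exon bases with Gm1043.

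**Figure D3:**
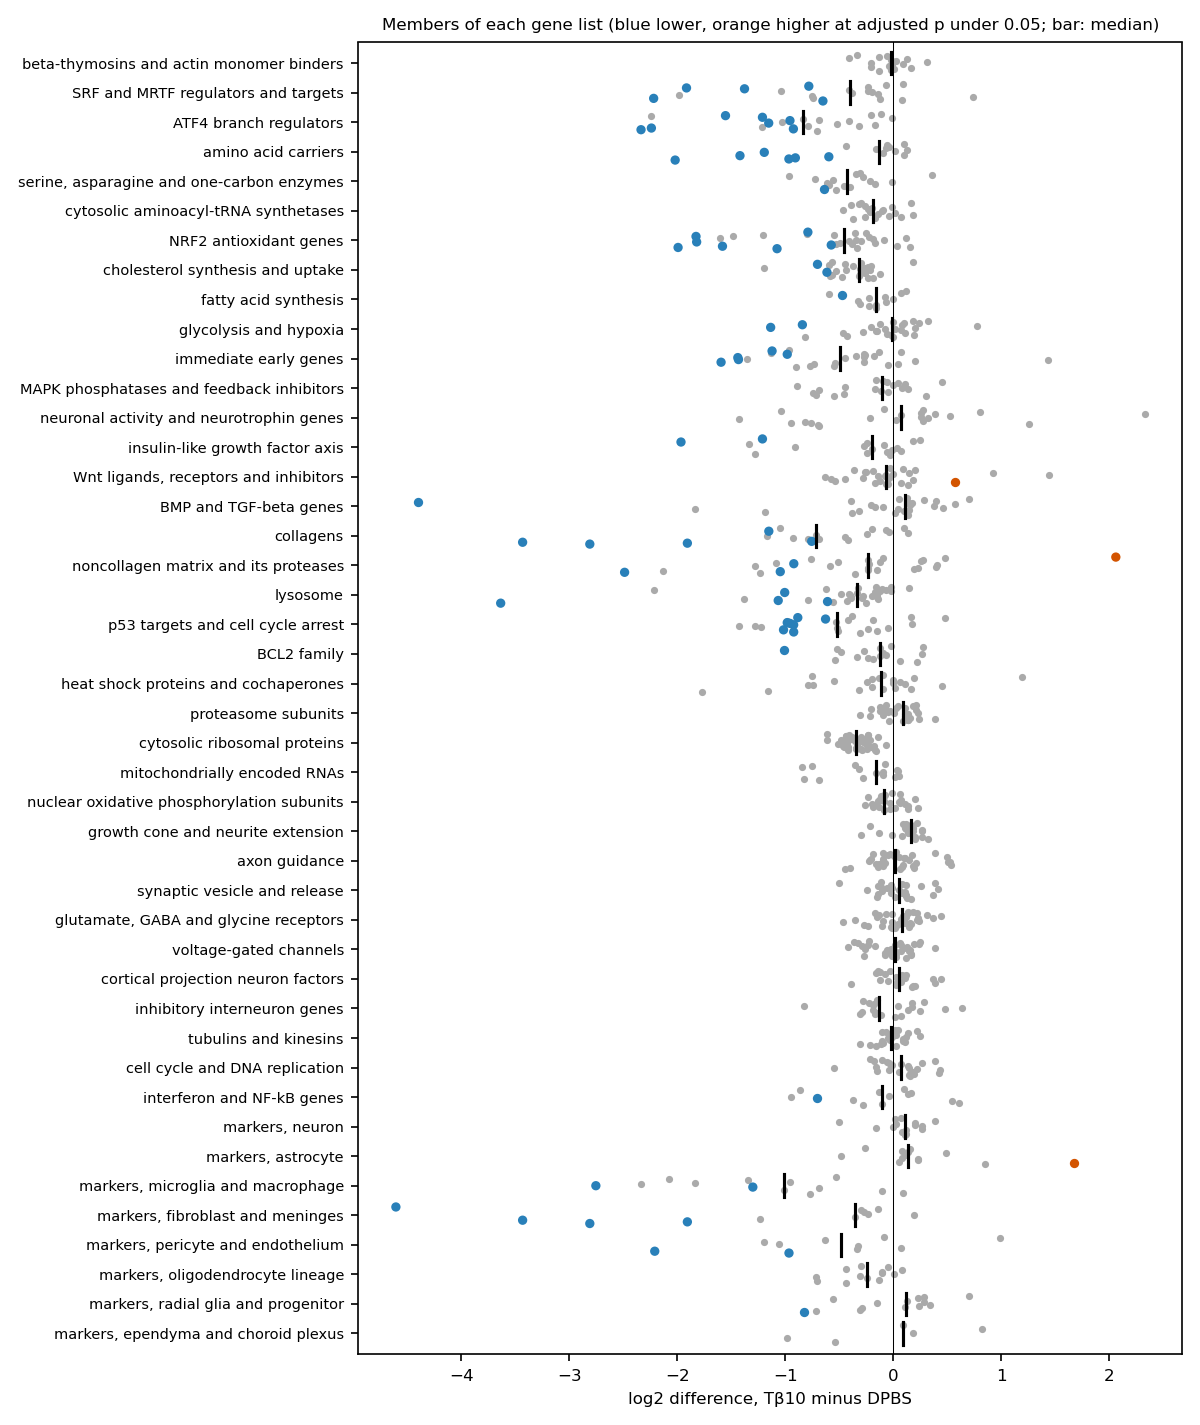
Log2 differences between Tβ10 and DPBS libraries (horizontal axis) of the tested members of each gene list with at least 5 (rows), with the list's median as a bar. Called members (blue lower, orange higher) number 7 each in the ATF4, NRF2 and p53 rows, 6 in the amino acid carrier row, 5 each in the SRF, immediate early and collagen rows and 4 each in the lysosome and fibroblast rows; the neuronal, synaptic and channel rows hold none.

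Neuronal gene groups held no call. This was so for 25 growth cone and neurite genes (median 0.165, with 21 above 0), 34 axon guidance genes (median 0.0128), 27 genes of the synaptic vesicle, 36 transmitter receptors, 35 voltage-gated channels, 22 cortical factors, 22 interneuron genes and 25 tubulins and kinesins. Basp1, a growth cone protein, came nearest in the first of these (0.32, adjusted p = 0.253), and the guidance ligand Sema3c in the second (0.51, adjusted p = 0.107). Nes, the progenitor filament protein, fell by 0.83 (adjusted p = 0.00642) and was the 1 call among 14 radial glial markers. Nkx2-2 of the oligodendrocyte lineage differed by -0.71 (adjusted p = 0.0553). Stat2, a mediator of interferon signals, fell by 0.71 (adjusted p = 0.0285) and was the 1 call among 13 interferon and NF-κB genes. No call was made among 31 proteasome subunits, 25 cell cycle genes, 22 heat shock genes, 15 mitochondrially encoded RNAs or 30 nuclear oxidative phosphorylation genes. All 45 cytosolic ribosomal protein genes lay below 0, with a median of -0.344, and none passed; their summed level was 26680 to 55390 with Tβ10 and 46130 to 60280 with DPBS. With Tβ10 library 1 left out their median was -0.13. On simulated data of this design, 17.9% of 1.5-fold changes, 43.3% of 2-fold changes and 80.3% of 4-fold changes were recovered. The recovery of smaller shifts, such as the medians of these groups, was not tested.

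Small structural RNAs made up a further part of the lower genes, noticed after their values were seen. Rmrp, the RNA of the RNase MRP enzyme that trims ribosomal RNA precursors, had 739, 1093, 703 and 653 normalized counts with Tβ10 and 2135, 1680, 2095 and 2046 with DPBS (-1.34 ± 0.15, adjusted p = 0.000123). Rn7s2, a signal recognition particle RNA, had 671, 854, 875 and 738 with Tβ10 and 2116, 1404, 1356 and 2384 with DPBS (-1.17 ± 0.17, adjusted p = 0.00178), and Rn7s1 fell by 1.17. The groups did not overlap in these RNAs. Rpph1, the RNA of RNase P, fell by 0.88 (adjusted p = 0.0493), while Rn7sk, a regulator of transcription elongation, differed by -0.67 (adjusted p = 0.0771), and Rny1 and Rny3 had an adjusted p of 0.626 and 0.458. Several calls repeat the same reads. Rmrp is listed under 2 identifiers, Ccdc107 shares exon bases with Rmrp, and Ccnb1ip1 had nearly the same values as Rpph1. Of the 139 called genes, 11 share over 50% of their exon bases with another gene. Long noncoding H19 (-1.28) and Neat1 (-1.03) fell too, as did the transcription factor Tshz2 (667 ± 80.7 with Tβ10, 1492 ± 110 with DPBS; -1.17 ± 0.12, adjusted p = 9.28e-05) and the translational regulator Cpeb1 (-1.28 ± 0.16, adjusted p = 0.000568).

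The number of changed genes depended on single libraries. It was 252 without Tβ10 library 1, 315 without library 2, 55 without library 3 and 69 without library 4, and 28, 58, 101 and 51 without DPBS libraries 1 to 4. DPBS libraries 1 and 4 were the highest controls in 48 and 51 of the 117 lower genes. There were 26 genes called whichever library was left out, all of them lower. Among these were Gpnmb, Slc7a11, Slc3a2, Trib3, Atf3, Eif4ebp1, Stc2, Hmox1, Srxn1, Gsta4, Egr1, Npas4, Slc2a1, Vegfa, Pappa, Ahnak, Col1a1, Tshz2, Cpeb1 and Rmrp. By list, the ATF4 branch had 4 to 11 calls over the 8 omissions, the NRF2 genes 3 to 10, the amino acid carriers 2 to 6, the immediate early genes 2 to 7, the collagens 1 to 7, the lysosomal genes 1 to 7 and the p53 genes 0 to 12. Without DPBS library 4 the counts were 6, 4, 3, 3, 1, 2 and 3 in that order. With the share of reads in mitochondrial rRNA as a covariate no gene passed, at 1791 genes with an unadjusted p under 0.05 against 2454 without it, and the medians of the lists moved in different directions. The median was -0.661 in the ATF4 branch against -0.836 without the covariate, -0.372 against -0.454 in the NRF2 genes, -0.275 against -0.526 in the p53 genes and 0.00932 against -0.313 in the cholesterol genes. In the collagens it was -0.958 against -0.712, in the SRF list -0.512 against -0.396 and in the amino acid carriers -0.324 against -0.128. The share and the treatment were partly aligned in these 8 libraries, so their parts in the result cannot be told apart.

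**Figure D4:**
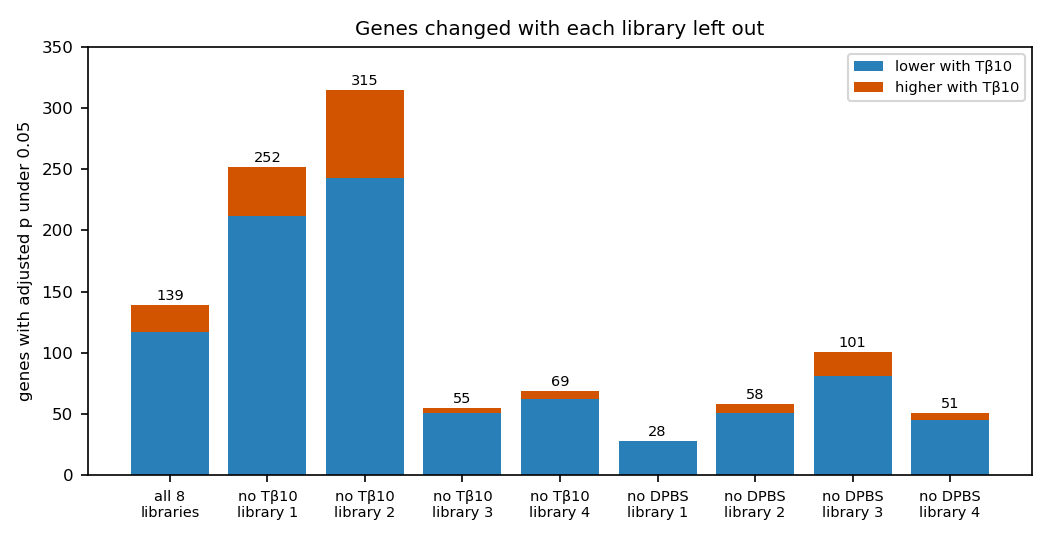
Number of genes with adjusted p under 0.05 (vertical axis, from 0) with all 8 libraries and with each library left out, split into lower (blue) and higher (orange) with Tβ10. The counts run from 28 without DPBS library 1 to 315 without Tβ10 library 2.

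Tβ10 was next compared directly with the other peptides, in a fit of all 16 libraries. Against NP24 no gene differed among 24232 (0%), with 591 at an unadjusted p under 0.05, and edgeR and DESeq2 gave 0 as well. The smallest p values per direction belonged to Tube1, Slc30a10 and Traf6, higher with Tβ10, and to Pdk3, Pitpnm2os2 and Cfdp1, lower with Tβ10, all at an adjusted p of 1. For Slc7a11, Tβ10 minus NP24 was 0.24 (95% interval -0.17 to 0.65), for Npas4 0.18 (-0.19 to 0.55), for Gpnmb -0.50 (-1.35 to 0.36) and for Col3a1 -0.14 (-1.38 to 1.09). These intervals leave room for differences of more than 2-fold in Gpnmb and Col3a1, so the comparison does not show that the peptides act alike.

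Tβ10 and Tβ4, both β-thymosins, differed in 326 of 24232 genes (1.35%), with 72 higher (0.297%) and 254 lower (1.05%) with Tβ10. Npas4 averaged 252 ± 27.8 normalized counts with Tβ10 and 1086 ± 203 with Tβ4 (log2 -2.09, adjusted p = 2.15e-06). Slc7a11 averaged 444 ± 83.8 with Tβ10 and 1150 ± 251 with Tβ4 (-1.37, adjusted p = 0.000964), and Gpnmb 39.5 ± 18.6 and 355 ± 251 (-3.06, adjusted p = 0.000408). Rgs5 had 10.2, 46.6, 39.6 and 23.9 with Tβ10 and 478, 242, 539 and 485 with Tβ4 (-3.95 ± 0.43, adjusted p = 8.81e-05). No Tβ10 library reached the Tβ4 range. Col3a1 (-4.83), Col1a1 (-4.25), Ccn2 (-3.73) and Col1a2 (-3.06) were also among the leading lower genes. By list, 10 of 20 collagens, 10 of 28 other matrix genes, 8 of 17 microglial markers, 8 of 26 immediate early genes, 6 of 12 fibroblast markers, 4 of 21 ATF4 branch genes and 3 of 28 NRF2 genes were lower with Tβ10, and none of these was higher. The filter here counted all 16 libraries, so members low with Tβ10 could enter through other groups, Tβ4 among them. The microglial markers tested were 17 here and 13 against DPBS. Members that entered in this way could hardly be called higher with Tβ10, so the absence of higher members is partly set by the filter.

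Genes higher with Tβ10 than with Tβ4 were led by Dclk3, a doublecortin-like kinase, with 344, 350, 347 and 396 normalized counts with Tβ10 and 154, 98.8, 187 and 140 with Tβ4 (1.34 ± 0.18, adjusted p = 0.000347). Ajap1 (1.26), Rxrg, a retinoid receptor (1.04), and Mkx (1.03) followed without overlap between the groups. Sla (1.20) and Tg (1.13) lie over each other on opposite strands and their counts were close in every library, so they may not be separate measurements. Some genes changed by Tβ10 did not differ between the peptides at the threshold. Srxn1 differed by -0.56 (95% interval -1.13 to 0.00173) and Aqp4 by 0.30 (-0.31 to 0.91). The count rested on Tβ4 library 1, without which 87 genes differed, and on Tβ4 library 2, without which 1052 did. In the fit of the 8 libraries alone 77 differed. Scaled to library size, 614 differed, 449 higher and 165 lower, with the median of all genes at 0.18. The Tβ4 libraries also held a higher share of mitochondrial rRNA, 15.3 ± 6.71% against 7.20 ± 1.96% with Tβ10, and its part in the difference was not tested.

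**Figure D5:**
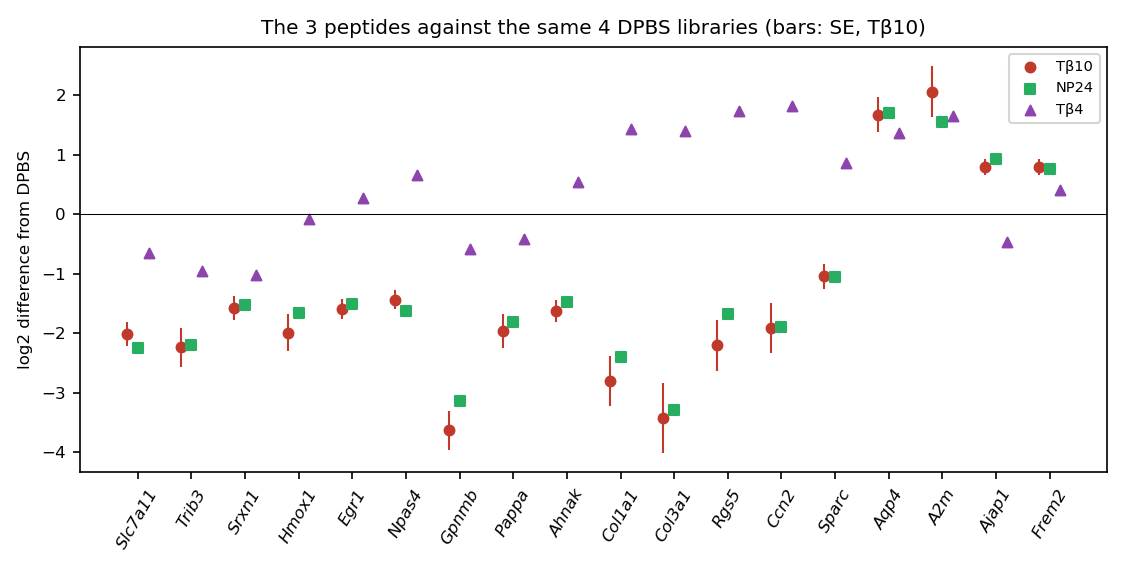
Log2 difference from the same 4 DPBS libraries (vertical axis) for 18 genes with Tβ10 (circles, with SE), NP24 (squares) and Tβ4 (triangles). Because the 3 differences share their DPBS libraries, their likeness is not a separate result. The Tβ4 triangles stand above 0 for Col1a1 (1.44), Rgs5 (1.74) and Ccn2 (1.82), where the Tβ10 circles are below. None of these Tβ4 differences from DPBS passed the threshold (limma adjusted p = 0.458, 0.409 and 0.375 in that order).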

How the data were processed

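Total RNA of cultured mouse neurons was purified on RNeasy Micro columns and made into libraries by the SMARTer Stranded Total RNA-Seq chemistry, per the labels. Per the submitters' processing notes, the build was GRCm38 and the tools were featureCounts, HISAT or HISAT2, DESeq2 and FastQC; their versions, the annotation and the strand setting are not given in the sources used here, so values of genes that overlap on opposite strands are uncertain. The deposited library values are signal: reads per gene which the authors scaled by a library's size factor. All nonzero values in each library, 100%, were whole multiples of 1 read at a tolerance of 0.01 reads, so the reads could be recovered; edgeR's count test on them called 129 genes. The deposited table also holds the authors' own fold change and its error as log2 values, a test statistic as a score, and p-values. At an adjusted p under 0.05 the authors' deposited table holds 263 genes, 64 above 0 and 199 below; 120 of them are among the 139 called here, and all 139 have the same sign there.

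The main test was limma-trend (limma 3.58.1 in R 4.3.3), two-sided, on values transformed as log2 after adding 1, for genes that reached 10 normalized counts in 4 or more libraries, with Benjamini-Hochberg adjustment over all genes tested and a threshold of 0.05. Tβ10 and DPBS were compared in a fit of their 8 libraries, and peptides with each other in a fit of all 16. Pairs of libraries within a group had a chi-square of 9.47 or more per degree of freedom, so no library was a repeat of another within sampling noise. The recovered reads were tested with edgeR 4.0.16 and, separately, DESeq2 1.42.0; other alternatives were other pseudocounts (0.1 and 10), filters and scalings, a covariate, a replicate block and leaving out each library. The fit was tested on simulated counts with known changes. Gene positions and exon sharing were taken from GENCODE M21, which holds 45045 of the 45724 versioned identifiers. Promoter windows and motifs were read from RefSeq for GRCm38.p6.

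The genes named are up to 18 per direction with the largest difference among called genes averaging 50 or more normalized counts, with groups that do not overlap, leaving out unnamed models and pseudogenes, the called members of each list or its 3 smallest p values, Tmsb10 and Tmsb4x, and up to 6 per direction between peptides. The comparison, gene lists and rules were chosen with earlier results of these data known, and the lists carry no test of their own. A result that rests on a withheld item is not reported here.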

Additional observations from a re-analysis of the deposited data

Results flagged for a closer look

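A sample was listed here where it lay further from the other 3 libraries of its group, relative to the group's range, than the 95% critical value of Dixon's test allows; chance gives this in about 1 of 20 groups. With Tβ10, Npas4 was highest in library 3 at 293.6 normalized counts, against 235 to 244 in the others, Klf7 in library 1 at 5678 and Gabra5 in library 3 at 1235. Mgp was at 0.536 in Tβ10 library 1, a single read, and at 0 in the other 3. Among the DPBS libraries, library 3 was highest for Sphkap at 1098 and Wnt7b at 729.3, and lowest for Gclm at 914.7, Stat2 at 471.5 and Mbp at 4235. Library 4 was highest for Pdgfrb at 261.7 and Olig2 at 955.5, library 1 for Btg2 at 834, and library 2 for Cck at 235.

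Between the peptides, 326 genes differed by the direct test of Tβ10 against Tβ4.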

How the results depend on the processing

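The count of 139 genes against DPBS was 102 to 167 under other pseudocounts, filters and TMM or library-size scaling, 129 by edgeR, 432 by DESeq2, 62 in the fit of all 16 libraries, 68 with a log2 difference of at least 1 and 0 with the mitochondrial rRNA covariate. Leaving out 1 library gave 28 to 315. Replicate numbers do not pair the libraries (correlations of same-numbered deviations -0.0895 to 0.0409; no Tβ10 library matched its own number best except library 4); with the number as a block 91 genes were called. The count against NP24 was 0 under every alternative run, block included. The 326 genes against Tβ4 became 184 without a filter, 614 scaled to library size, 813 by DESeq2, 77 with the spread of the 8 libraries, 214 with the block, 168 with a log2 difference of at least 1 and 87 to 1052 without 1 library. The cause was not tested.

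Few named genes changed direction, and none of these was called with all 8 libraries; mt-Co3 was called without Tβ10 library 2 (log2 -1.11, adjusted p = 0.0401). Tmsb10 moved to 0.135 with the covariate and ranged from -0.335 to 0.0893 without 1 library. Tmsb4x moved to 0.0789 scaled to library size, 0.0635 by edgeR, 0.0618 by DESeq2 and 0.50 with the covariate, and ranged from -0.251 to 0.19 without 1 library. With the covariate mt-Co3 moved to 0.0781, Tuba4a to 0.10 and Kif26b to -0.078; Alas2 ranged from -0.295 to 0.065 without 1 library. Genes under about 50 normalized counts, such as Mgp and Col1a1, rest on few reads, and their sizes depend on the pseudocount.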
